A study of Mus musculus with 8 samples.

Results

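The glucocorticoid receptor gene Nr3c1, the cortisone reductase gene Hsd11b1 and 8 genes known to be induced by the receptor (Fkbp5, Tsc22d3, Per1, Zbtb16, Sgk1, Klf9, Errfi1 and Dusp1) were followed in bulk RNA sequencing of whole fetal mouse lung. These 10 genes, among 55385 in the count files, were chosen by symbol for their known roles, with earlier results of these data known. All fetuses were C57BL/6 and collected at E18.5. In the tracheal occlusion (TO) group the trachea was tied off through the uterine wall earlier in gestation. A carotid artery and a jugular vein on one side were tied with it. The dams operated on received progesterone before collection. Whether the control fetuses came from such dams is not given in the sources used here. The control group is labelled control without further detail, and both groups had 4 libraries, each from a whole lung.

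Glucocorticoids enter cells as steroids and bind a cytoplasmic receptor held by heat shock chaperones, and the bound receptor moves to the nucleus and acts on transcription. In late gestation the rising fetal glucocorticoid level is known to mature the lung, with thinning of the walls between airspaces, surfactant production and reduced proliferation. Hsd11b1 encodes the reductase that regenerates active hormone inside cells, so that tissue exposure does not depend on plasma hormone alone.

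Sequencing depth was even except in 1 library. The 4 control libraries and TO 2, 3 and 4 held 22822261 to 35002061 read pairs on genes, whereas TO 1 held 270078. Each of the 10 genes had 748 to 8764 read pairs in the 7 deep libraries and 12 to 69 in TO 1, so every TO 1 value carries a large counting error. All values are counts scaled to a common library total (CPM) after TMM scaling, which corrects each library's total for genes of extreme level. The lung markers Sftpc, Nkx2-1, Ager, Pecam1, Col1a1, Tcf21 and Epcam were present in all 8 libraries, with summed levels of 9384 to 16936 CPM. TO 1 also had the highest summed thymocyte markers (508 CPM, against 2.42 to 25.5 in the others) and the highest striated muscle markers (8931 CPM, against 501 to 6328). Hepatocyte markers summed to 893 CPM for control 1 and 386 CPM for TO 4, against 2.60 to 96.1 CPM elsewhere. Whether other tissue in these libraries moved the 10 genes was not tested.

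The specimen names that the authors gave their files end in digits that some specimens share. By these digits the lungs fell into set A (controls 1 and 4, TO 1 and 4), set B (control 2 and TO 2) and set C (control 3 and TO 3). What the digits stand for is not given in the sources used here. The main comparison used 6 lungs, controls 1, 2 and 4 against TO 2, 3 and 4, which leaves set C with its TO lung only. These are the lungs whose specimen names appear in the original comparison. The fit of all 8 libraries is therefore given beside it, and for the 10 genes and the list summaries also a fit with the set as a block.

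Nr3c1 (ENSMUSG00000024431.15, minus strand of chr18:39410545-39519421 in GRCm38), the receptor itself, was at 238, 213, 263 and 206 CPM in controls 1 to 4 and at 237, 253, 216 and 196 CPM in TO 1 to 4. The groups overlapped over most of their range, and the highest level was in control 3. The log2 difference (TO minus control) was 0.02 ± 0.12 (SE) in the 6 libraries, -0.03 ± 0.14 in all 8 and -0.04 ± 0.13 with the set as a block. Its coefficient of variation over the 7 deep libraries was 11.2%, the lowest of the 10 genes, against 11.7% for Fkbp5 and 59.1% for Klf9.

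Hsd11b1 (ENSMUSG00000016194.14, minus strand of chr1:193221634-193264075), the activating reductase, was at 109, 173, 234 and 143 CPM in controls 1 to 4. In TO 1 to 4 it was at 41.2, 196, 184 and 109.7 CPM. Within each group, the libraries of set A were the lowest and those of sets B and C the highest. TO 1, with 12 read pairs, gave the lowest level. The log2 difference was 0.20 ± 0.23 in the 6 libraries, -0.22 ± 0.34 in all 8 and -0.27 ± 0.20 with the set as a block.

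Fkbp5 (ENSMUSG00000024222.17, minus strand of chr17:28399094-28517527) encodes a receptor co-chaperone that the receptor induces and that lowers its hormone binding, a feedback loop. Its level was 110.4, 98.7, 103 and 126 CPM in controls 1 to 4 and 124, 127, 135 and 111 CPM in TO 1 to 4. Of the controls, control 4 alone lay within the TO range. The log2 difference was 0.15 ± 0.13 in the 6 libraries, 0.18 ± 0.13 in all 8 and 0.19 ± 0.13 with the set as a block (edgeR, unadjusted p = 0.269, 0.189 and 0.167).

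Tsc22d3 (GILZ, ENSMUSG00000031431.13, minus strand of chrX:140539528-140600659), an anti-inflammatory leucine zipper protein, was at 100.2, 111, 143 and 102 CPM in controls 1 to 4 and at 89.3, 133, 105 and 108 CPM in TO 1 to 4. Per1 (ENSMUSG00000020893.17, plus strand of chr11:69095217-69109960), a clock repressor that the receptor induces directly, was at 185, 213, 249.9 and 201 CPM and at 134, 204, 260.1 and 205 CPM. For both genes the groups overlapped, and the highest level was in a lung of set C. Zbtb16 (PLZF, ENSMUSG00000066687.5, minus strand of chr9:48654297-48836222), a zinc finger repressor, was at 67.4, 62.8, 112 and 75.3 CPM in controls 1 to 4 and at 58.4, 69.5, 97.6 and 84.7 CPM in TO 1 to 4. Both set C lungs lay above the 6 others. In the 6 libraries the log2 difference was 0.14 ± 0.12 for Tsc22d3, 0.15 ± 0.12 for Per1 and 0.29 ± 0.14 for Zbtb16. In all 8 it was -0.04, -0.05 and 0.01.

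Sgk1 (ENSMUSG00000019970.15, plus strand of chr10:21882184-21999903) encodes a kinase that raises sodium channel activity in epithelia. It was at 34.7, 27.1, 39.8 and 42.1 CPM in controls 1 to 4 and at 44.6, 34.9, 33.7 and 38.5 CPM in TO 1 to 4. The control range covered every deep TO library, and the log2 difference was 0.04 ± 0.18 in the 6 libraries. The bases before an annotated start of Sgk1 are shown because they were the only ones among these genes with a perfect palindromic receptor element. The palindrome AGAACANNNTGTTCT, searched on both strands, was found in 3 of 32851 windows of the same length (0.00913%). It is capitalised in the stretch chr10:21993640-21993889 (plus strand, RefSeq, GRCm38.p6), where it begins 189 bases before the start:
Sgk1: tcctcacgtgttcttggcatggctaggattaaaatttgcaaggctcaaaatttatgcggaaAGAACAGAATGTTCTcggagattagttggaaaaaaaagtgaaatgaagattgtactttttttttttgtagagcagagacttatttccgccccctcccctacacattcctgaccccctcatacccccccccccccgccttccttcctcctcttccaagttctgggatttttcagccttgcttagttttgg

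Klf9, Errfi1 and Dusp1 had the largest differences in the 6 libraries. Klf9 (ENSMUSG00000033863.2, plus strand of chr19:23141226-23168134), a transcription factor of the Krüppel-like family that the receptor induces, was at 64.4, 52.9, 213 and 65.3 CPM in controls 1 to 4. In TO 1 to 4 it was at 51.5, 99.2, 152 and 63.1 CPM. Control 3 was over every TO lung, and TO 3 and TO 2 followed it, while the 4 lungs of set A and control 2 lay close together. Without control 3 the control mean was 60.9 ± 6.89 CPM (SD, n = 3), against 105 ± 44.7 CPM (SD, n = 3) in TO 2, 3 and 4. The log2 difference was 0.78 ± 0.26 in these 6 libraries (unadjusted p = 0.0165, adjusted p = 0.907, edgeR) and -0.04 ± 0.45 in all 8.

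Errfi1 (Mig6, ENSMUSG00000028967.10, plus strand of chr4:150853919-150868892), a feedback inhibitor of the EGF receptor, was at 109.6, 112, 177 and 105 CPM in controls 1 to 4. In TO 1 to 4 it was at 79.0, 168, 172 and 101 CPM. Here too control 3 was the highest of the 8 lungs, with TO 3 and TO 2 next. The log2 difference was 0.43 ± 0.18 in the 6 libraries (unadjusted p = 0.0417, adjusted p = 0.907, edgeR), 0.10 ± 0.25 in all 8 and 0.07 ± 0.15 with the set as a block.

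Dusp1 (ENSMUSG00000024190.7, minus strand of chr17:26505590-26562128), a phosphatase that inactivates MAP kinases, was at 32.7, 43.2, 54.0 and 35.3 CPM in controls 1 to 4. In TO 1 to 4 it was at 54.9, 54.3, 63.7 and 38.7 CPM. In every set the TO lungs lay above the control lungs of the same set. The log2 difference was 0.49 ± 0.19 in the 6 libraries (unadjusted p = 0.0289, adjusted p = 0.907, edgeR), 0.35 ± 0.20 in all 8 and 0.29 ± 0.13 with the set as a block (unadjusted p = 0.0447, adjusted p = 0.967, edgeR). With that block but without TO 1, where Dusp1 had 16 read pairs, the difference was 0.24 ± 0.11 (unadjusted p = 0.0555, edgeR). The annotated exons of Dusp1 share 11 of 3311 bases with Ergic1 on the opposite strand.

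The bases before a start of Klf9, Errfi1 and Dusp1 are shown because these 3 genes led the difference in the 6 libraries. Mean levels rose from set A through set B to set C for these 3, and also for Nr3c1, Hsd11b1, Tsc22d3 and Per1. Where a gene had more than 1 window, the one with the most of the motifs below is shown. TGACGTCA, the binding motif of the cAMP response factors, and CACGTG, the E-box read by the clock factors, are capitalised where they occurred. On either strand TGACGTCA was in 1.79% and CACGTG in 7.15% of the 32851 windows. Of the 17 windows searched for these genes, 2 held TGACGTCA and 4 held CACGTG. TGACGTCA began 51 bases before the Errfi1 start and 143 before the Dusp1 start, and CACGTG 126 before the Dusp1 start. The stretches are chr19:23140976-23141225 (plus strand) for Klf9, chr4:150854820-150855069 (plus strand) for Errfi1 and chr17:26508473-26508722 (minus strand) for Dusp1, from RefSeq on GRCm38.p6:
Klf9: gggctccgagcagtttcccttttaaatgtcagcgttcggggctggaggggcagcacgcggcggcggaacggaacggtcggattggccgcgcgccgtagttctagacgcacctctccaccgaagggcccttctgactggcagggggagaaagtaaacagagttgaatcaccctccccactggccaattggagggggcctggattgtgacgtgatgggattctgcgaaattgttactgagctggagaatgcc
Errfi1: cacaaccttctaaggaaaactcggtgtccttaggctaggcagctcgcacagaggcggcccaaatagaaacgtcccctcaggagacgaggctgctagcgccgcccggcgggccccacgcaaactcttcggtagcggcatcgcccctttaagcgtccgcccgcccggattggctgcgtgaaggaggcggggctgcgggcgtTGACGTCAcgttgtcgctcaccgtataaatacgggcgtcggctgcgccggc
Dusp1: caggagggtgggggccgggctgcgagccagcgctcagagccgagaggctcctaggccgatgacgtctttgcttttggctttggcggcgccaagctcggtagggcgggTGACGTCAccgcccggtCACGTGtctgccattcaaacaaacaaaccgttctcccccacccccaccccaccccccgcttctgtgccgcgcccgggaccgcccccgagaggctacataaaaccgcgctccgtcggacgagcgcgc

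The Klf9 stretch held none of the motifs searched, and no palindromic element was found for Errfi1 or Dusp1 in these windows. CACGTG was also in a window of Per1, beginning 166 bases before the start, of Fkbp5, 169 before, and of Sgk1, 246 before. Windows were searched for 8 of the 10 genes, and Nr3c1 and Zbtb16 were not searched. The single arm TGTTCT was in 19% of all windows and in 4 of the 17 searched for these genes, which belonged to Sgk1 and Tsc22d3.

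Scaled by exon length, the mean control level ran from 38.8 CPM per kilobase for Hsd11b1 through 37.7 for Per1, 35.1 for Errfi1, 29.9 for Nr3c1, 26.3 for Tsc22d3, 20.6 for Klf9, 15.0 for Zbtb16, 12.5 for Dusp1 and 11.6 for Fkbp5 to 7.32 for Sgk1. The ranges of the 4 controls overlapped between all neighbours in this order except the last pair, where Fkbp5 was at 10.4 to 13.3 and Sgk1 at 5.52 to 8.58 CPM per kilobase.

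**Figure D1:**
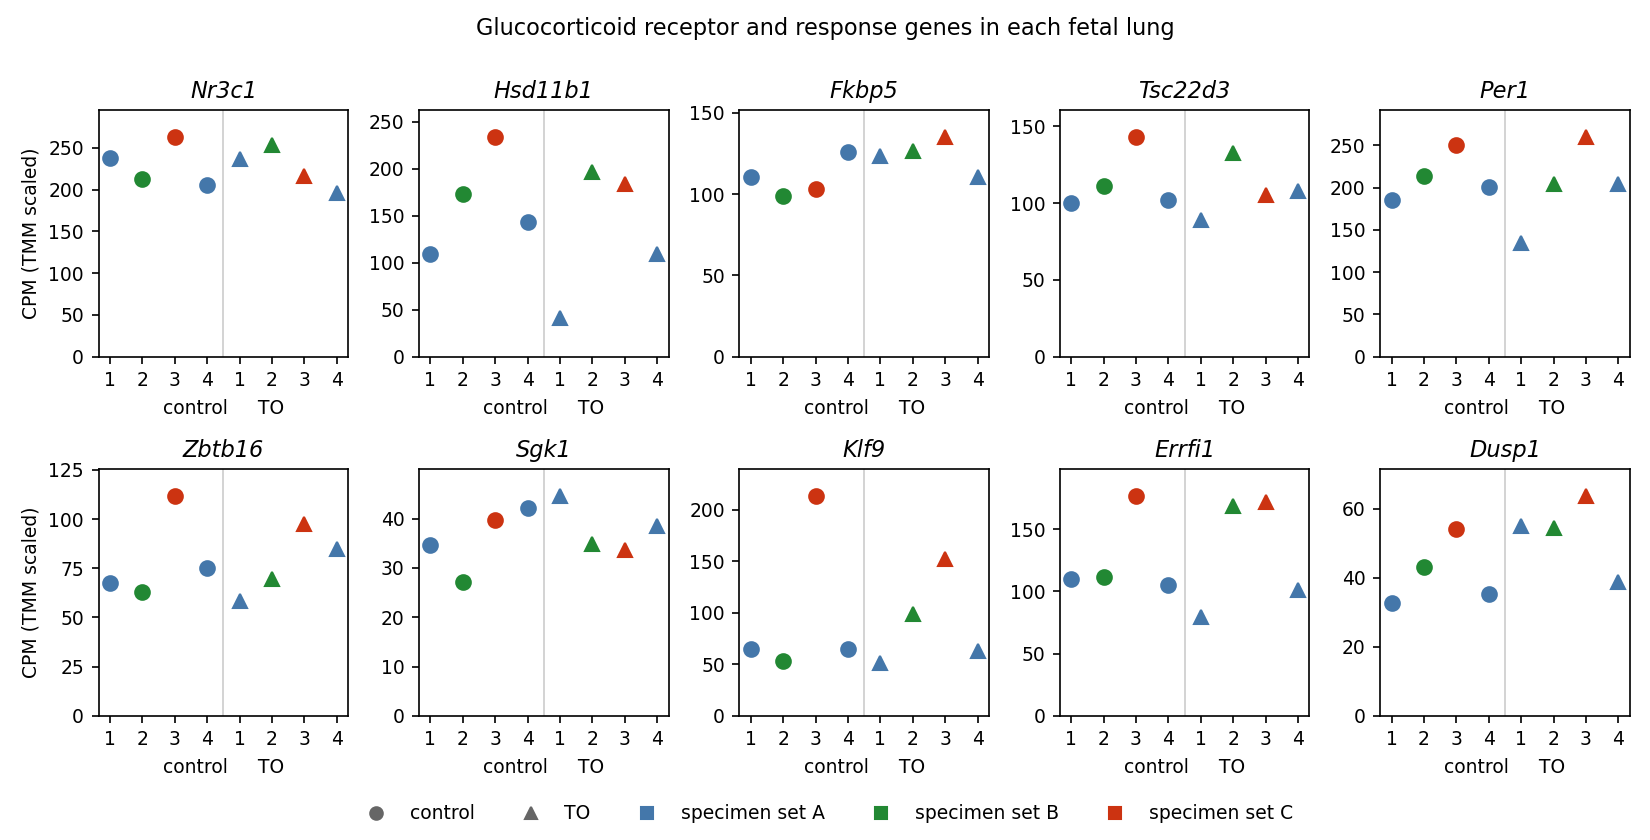
Level of each of the 10 genes (CPM, TMM scaled, linear axis from 0) in each lung, with circles for controls 1 to 4, triangles for TO 1 to 4 and colour for the specimen set. Klf9 was highest in the set C lungs, control 3 (213 CPM) and TO 3 (152 CPM), whereas Nr3c1 lay between 196 and 263 CPM in all 8.

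None of the 10 genes passed an adjusted p of 0.1 (edgeR quasi-likelihood test, Benjamini-Hochberg over 21859 genes) in the 6 libraries, where 0% of all genes passed. None passed with DESeq2 (44 of all genes, 0.201%) or limma-voom either. All 10 log2 differences were above 0, with a median of 0.18, against 49.3% above 0 and a median of -0.0045 over all genes tested. At an unadjusted p under 0.05 there were 3 of 10 (Klf9, Dusp1 and Errfi1), all higher in TO, against 5.14% of all genes in either direction and 3.07% higher in TO. Other lists also lay to one side of 0 in these 6 libraries. Of the striated muscle markers, 10 of 10 were higher in TO (median log2 difference 1.23). So were 8 of 8 neutrophil markers tested (1.48) and 12 of 12 interferon-stimulated genes (1.96), while 10 of 10 cell cycle genes were lower (-0.74). With edgeR 0 genes of these lists passed the threshold. At an unadjusted p under 0.05 there were, in the same order, 0, 6, 8 and 1, while DESeq2 passed 0, 3, 1 and 0. Their part in the common direction was not tested. Mpo and Elane, neutrophil markers with too few reads to test in the 6 libraries, lay the other way. They reached 1.27 and 1.09 CPM in control 1, and at most 0.0853 and 0.124 CPM in TO. No gene of the 10 separated the groups without overlap, which 10.9% of all genes did.

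Adding the 2 left-out libraries removed this common direction. With control 3 alone added (7 libraries), Nr3c1, Hsd11b1 and Sgk1 were below 0 and the median was 0.074. Tsc22d3, Per1 and Klf9 were below 0 once TO 1, with its 12 to 69 read pairs per gene, was added too. In all 8 libraries 5 of 10 differences were above 0, the median was -0.01, and none had an unadjusted p under 0.05 (2.35% of all genes). With the set as a block 6 of 10 were above 0, against 48.1% of all genes, and the median was 0.05. Dusp1 alone then had an unadjusted p under 0.05 (5.11% of all genes, 3.08% higher in TO). Without TO 1 the same block gave Dusp1 an unadjusted p of 0.0555 (edgeR). Within sets, with TO 4 standing for TO in set A, Dusp1 was higher in TO in all 3 sets, by log2 differences of 0.19, 0.33 and 0.24. Klf9 differed by -0.04, 0.91 and -0.49 in sets A, B and C, and Errfi1 by -0.09, 0.59 and -0.04. Of the 10 genes, 5 were higher in TO in 2 sets and 4 in 1 set. In 6 libraries, leaving out TO 4 brought Klf9 (log2 difference 1.05, adjusted p = 0.0884) and Errfi1 (0.65, adjusted p = 0.0689, edgeR) past the threshold, in a fit where 144 genes passed over the whole table against 0 with TO 4.

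**Figure D2:**
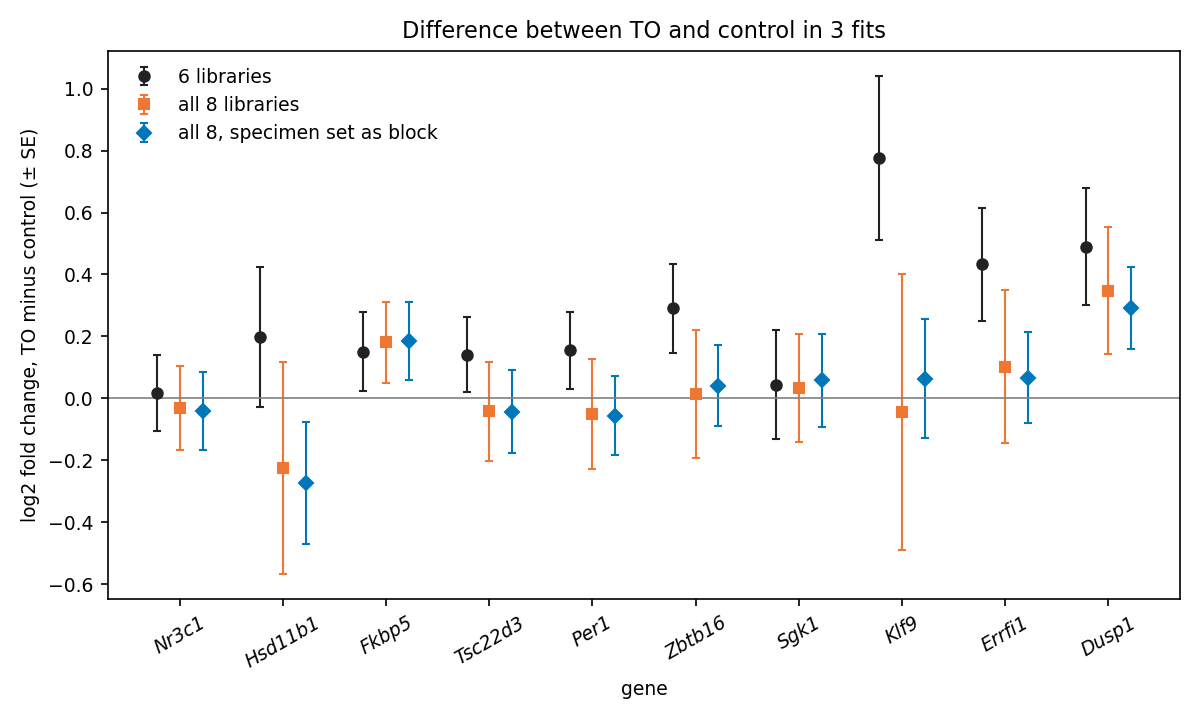
Log2 difference between TO and control for each gene, with its standard error, in the 6 libraries (circles), all 8 libraries (squares) and all 8 with the specimen set as a block (diamonds). Klf9 went from 0.78 to -0.04 and 0.06, whereas Dusp1 was at 0.49, 0.35 and 0.29.

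Klf9, Errfi1, Hsd11b1, Dusp1 and Zbtb16 differed between the specimen sets. The set, tested as a term with 2 degrees of freedom beside TO in all 8 libraries after the values had been seen, passed an adjusted p of 0.1 for 5 of 10 genes, all higher in set C than in set A. Over all 22545 genes tested 5.5% passed, and 2.74% passed with set C over set A. The adjusted p of this set test (edgeR) was 0.00474 for Klf9, 0.059 for Errfi1, 0.065 for Hsd11b1, 0.0872 for Dusp1 and 0.0957 for Zbtb16. The log2 difference between set C and set A alone was 1.54 ± 0.22 for Klf9 (own adjusted p = 0.0019), 0.77 ± 0.17 for Errfi1 (0.0226), 0.95 ± 0.23 for Hsd11b1 (0.0352), 0.64 ± 0.16 for Dusp1 (0.0346) and 0.50 ± 0.16 for Zbtb16 (0.0927), all with edgeR. The other 5 did not pass. Nr3c1 differed by 0.14 ± 0.15, Fkbp5 by 0.00 ± 0.15, Sgk1 by -0.08 ± 0.18, Tsc22d3 by 0.30 ± 0.16 and Per1 by 0.46 ± 0.15 (set test adjusted p = 0.2496 for Per1, edgeR). Of the 10 genes, 9 were above 0 for set C over set A, against 49.2% of all genes. Set B differed from set A by 0.79 ± 0.23 for Hsd11b1 and 0.45 ± 0.18 for Errfi1, and by 0.26 ± 0.23 for Klf9.

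The calls of the set test changed with single lungs. Without TO 1 the same count of 5 passed (5.59% of all genes). Without control 3 none of the 10 passed (1.59% of all genes), with TO 3 then the single lung of set C. The log2 difference from set A was then 1.06 for Klf9 (set test adjusted p = 0.1796, edgeR), 0.86 for Hsd11b1, 0.67 for Errfi1, 0.59 for Dusp1 and 0.30 for Zbtb16. Klf9 was the 1 gene that passed without TO 4 (2.79% of all genes), and there were 2 without control 1 (4.53%), 2 without control 4 (4.34%), 3 without TO 2 (6.74%), 4 without control 2 (6.35%) and 4 without TO 3 (8.66%). Klf9 passed in 7 of these 8 fits, with adjusted p of 0.000411 to 0.0167.

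**Figure D3:**
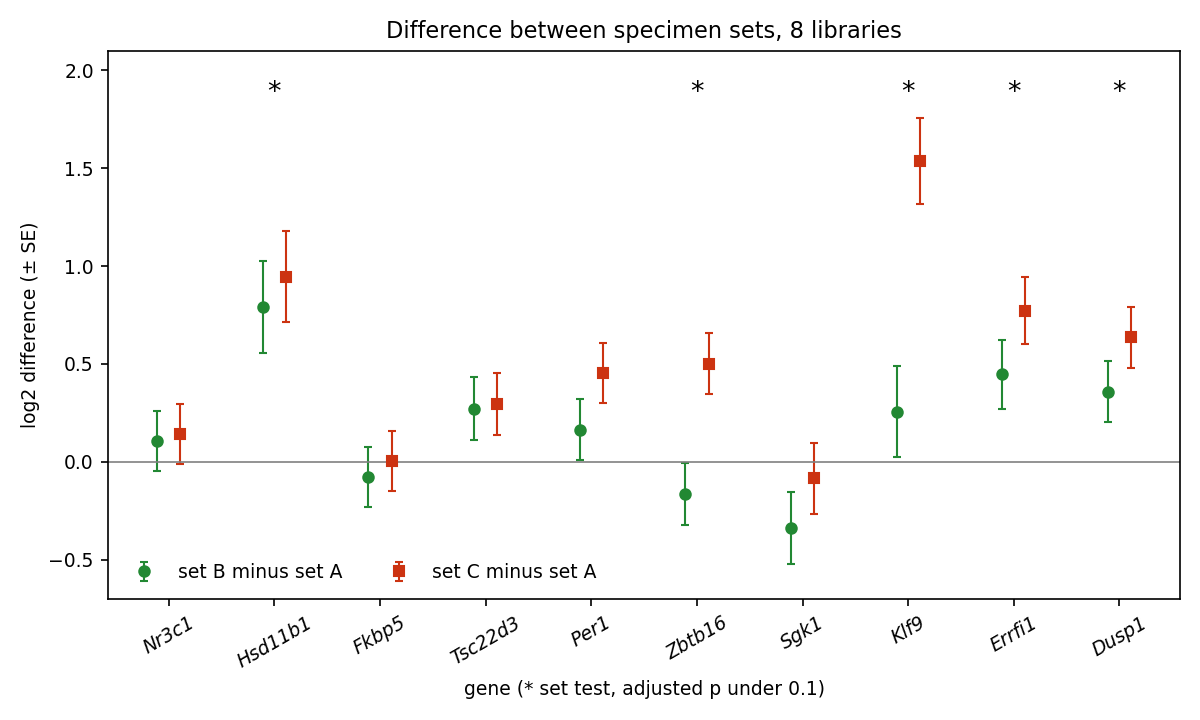
Log2 difference of set B (circles) and set C (squares) from set A for each gene, with standard errors, from the fit of 8 libraries with set and TO. A star marks the 5 genes whose set test passed; Klf9 lay highest at 1.54 for set C, whereas Fkbp5 was at 0.00.

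Other gene lists differed between the sets as well. All 12 interferon-stimulated genes passed the set test with set C over set A (7 without TO 3 and 9 without control 3), among them Ifit3 by 4.08 on the log2 scale. All 10 cell cycle genes passed with set C under set A (9 without control 3), among them Mki67 at -1.82 and Top2a at -2.03. Cell cycle levels summed to 473 and 451 CPM in the set C lungs, against 942 to 1808 CPM in the other 6. All 7 erythroid markers measured passed the set test, with medians of 0.82 for set C and 0.72 for set B over set A, and 1 of them passed without control 3, 3 without control 4 or TO 4. Hepatocyte markers passed for 7 of 9, with medians of -4.52 for set C and -4.86 for set B against set A, which holds the 2 lungs rich in them. Of these, 2 of 9 passed without control 3, 4 of 8 without control 1 and 0 of 8 without TO 4. In whole lung, more cells of a type cannot be told apart from more RNA per cell, and the part of these shifts in the 10 genes was not tested.

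The other genes of the pathway were read from lists of known members. Of the chaperones, the second receptor and the genes of hormone metabolism, 12 of 15 were abundant enough to test, 6 were higher and 6 lower in TO in the 6 libraries, and none passed or had an unadjusted p under 0.05. Hsp90ab1, the chaperone that holds the receptor, differed by -0.09 ± 0.10 and Hspa8 by 0.07 ± 0.16. Hsd11b2, the enzyme that inactivates the hormone, was at 0 to 2.47 CPM and differed by -0.39 ± 0.59. H6pd, which supplies the cofactor for the reductase of Hsd11b1, differed by 0.27 ± 0.17 between TO and control in the 6 libraries and by -0.05 ± 0.24 in all 8. It was the 1 gene of this list to pass the set test, at 0.76 ± 0.17 for set C over set A (adjusted p = 0.0614, edgeR). It no longer passed without control 1, control 3 or TO 4. The steroid synthesis genes Cyp11b1 and Cyp21a1 had too few reads to test. The hormone carrier Serpina6 had reads in too few libraries to test. It was at 5.38 CPM in control 1, 0.910 CPM in TO 4 and 0 elsewhere. Control 1 and TO 4 also had the highest summed hepatocyte markers, and the part of liver tissue in the Serpina6 level was not tested.

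Of the 10 coregulators none passed between TO and control. Ncor1, a corepressor, differed by 0.13 ± 0.13, Ep300, an acetyltransferase, by 0.16 ± 0.12, and Smarca4, a chromatin remodeller, by -0.28 ± 0.15 in the 6 libraries. In all 8 they differed by -0.05, -0.06 and -0.03. The set test passed for 2 of 10, Crebbp (0.59 ± 0.13 for set C over set A) and Smarca4 (-0.69 ± 0.15), and for none without control 1, control 3 or TO 4.

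Of 30 other response genes, 28 were tested. In the 6 libraries 22 were higher in TO, with a median log2 difference of 0.32, and 10 had an unadjusted p under 0.05, all higher. None passed with edgeR and 3 passed with DESeq2, which were named after their values were seen: Cebpd, a transcription factor that the receptor induces (0.86 ± 0.23, adjusted p = 0.0688 with DESeq2), Lcn2 (1.83 ± 0.25) and Il1r2 (3.87 ± 0.94), the decoy receptor for interleukin-1. Il1r2 was near the detection limit, at 0.131, 0.260 and 0.121 CPM in controls 1, 2 and 4. It was at 0.289, 4.13 and 3.41 CPM in TO 2, 3 and 4. Lcn2 and Il1r2 are also known from neutrophils, whose markers summed to 24.2 to 56.5 CPM in the controls and 57.5 to 167 CPM in TO. The part of neutrophils in this was not tested. Glul, glutamine synthetase, differed by 0.40 ± 0.13, and the abundant Foxo3 by 0.09 ± 0.10. Over all 8 libraries the differences were 0.24 ± 0.37 for Cebpd, 1.59 ± 0.29 for Lcn2, 2.38 ± 0.95 for Il1r2, -0.07 ± 0.27 for Glul and -0.09 ± 0.14 for Foxo3. Tat, a liver enzyme, was at 4.41 CPM in TO 4 and at 0 to 0.553 CPM elsewhere. Hepatocyte markers summed to 386 CPM in TO 4 and to 893 CPM in control 1, where Tat was at 0.0876 CPM. The part of liver tissue in the Tat level was not tested. In all 8 libraries 17 of 28 were higher, with a median of 0.09, and 2 had an unadjusted p under 0.05, both higher. With the set as a block 17 of 28 were higher, with a median of 0.07, and 2 higher and 1 lower had an unadjusted p under 0.05.

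Of these 28 genes, 7 passed the set test, all higher in set C, including Bcl6 (1.64 ± 0.21), Cebpd (1.31 ± 0.19), Pdk4 (1.02 ± 0.27) and Glul (0.88 ± 0.17). Without control 3 the count was 2. Mt1, a metallothionein, reached 229 CPM in control 3, followed by TO 2 with 161 CPM, against 44.7 to 83.4 CPM in the other 6. Mt2 was at 0 to 0.235 CPM, and 432 of its 588 exon bases overlap Gm45774 on the opposite strand, where reads counted without strand are not assigned.

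Among 15 fetal lung genes known to respond to glucocorticoid, 11 were higher in TO in the 6 libraries (median 0.30) and none passed. The genes were listed without the direction of their known response, so a count of higher genes does not measure that response. In all 8 libraries 7 of 15 were higher (median -0.06). The set test passed for 10 of 15, 8 of them higher and 2 lower in set C than in set A, for 3 without control 3 and for 4 without TO 4. Against set A, set C was 2.66 ± 0.28 higher for Sftpd, a surfactant collectin, 1.48 ± 0.20 higher for Eln, elastin, and 0.65 ± 0.21 higher for Sftpb, a surfactant protein. Sftpb was highest in set B, at 1.16 over set A. Mdk, midkine, and Vcan, versican, were at -1.16 ± 0.22 and -0.81 ± 0.16. Sftpd reached 322 CPM in TO 3, 286 CPM in control 3 and 172 CPM in TO 2, against 35.6 to 78.2 CPM in the others. Between TO and control, Sftpd differed by 1.49 ± 0.60, Eln by 0.58 ± 0.28, Sftpb by 0.38 ± 0.32 and Mdk by -0.59 ± 0.30 in the 6 libraries. In all 8 they differed by 0.35 ± 0.69, -0.12 ± 0.42, 0.19 ± 0.34 and -0.32 ± 0.32, so that Eln turned direction.

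Per1 and Klf9 have clock functions too, so the clock genes were read beside them. In the 6 libraries 15 of 16 were higher in TO, with a median of 0.25, and none passed. In all 8 libraries 11 of 16 were higher, with a median of 0.08. Tef differed by -0.08 ± 0.14, Clock by 0.25 ± 0.15, Nr1d1 by 0.67 ± 0.35 and Bhlhe40 by 0.56 ± 0.20 in the 6 libraries. In all 8 they differed by -0.29, 0.03, 0.35 and -0.19, so that Bhlhe40 turned direction. The set test passed for 6 of 16, all higher in set C, with Bhlhe40 at 1.36 ± 0.24, for none without control 3 and for 3 without control 1, control 4 or TO 4. Hours of collection are not given in the sources used here.

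Dusp1 also belongs with the immediate early genes, which respond to growth factors and handling of tissue within minutes. Of 14 tested, 10 were higher in TO in the 6 libraries (median 0.24) and none passed with edgeR. Fos passed with DESeq2 (1.21 ± 0.28 by edgeR, adjusted p = 0.0356 with DESeq2). Fosb, near the detection limit, differed by 1.45 ± 0.63, and the abundant Jun and Btg2 by 0.10 ± 0.16 and 0.26 ± 0.16. In all 8 libraries the differences were 0.29 ± 0.50 for Fos, 1.40 ± 0.60 for Fosb, -0.02 ± 0.16 for Jun and -0.13 ± 0.30 for Btg2. The level of Fos peaked in control 3, with 24.4 CPM, and TO 3, with 18.3 CPM, against 4.68 to 11.9 CPM in the others. The set test passed for Fos, Ier3 and Zfp36, all higher in set C than in set A, for 1 of the 14 without control 3 and for 5 without control 2 or TO 3.

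**Figure D4:**
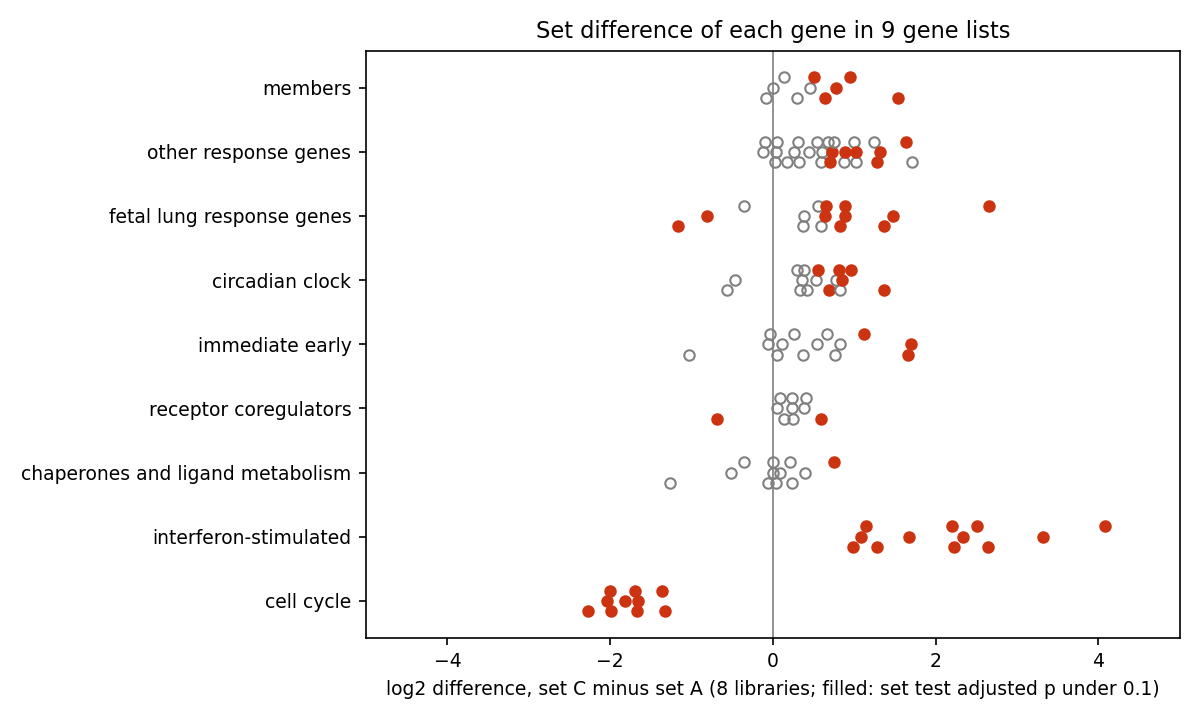
Log2 difference between set C and set A for each gene tested in 9 lists (8 libraries), filled where the set test passed. The 10 genes lay between -0.08 and 1.54; 1 gene, Tat at -7.94, lies outside the axis.

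Over the 7 deep libraries, the genes whose log2 CPM ran most like that of Fkbp5 among 12411 genes of at least 5 CPM were Prdm4 (Pearson r = 0.952), Lysmd3 (0.940), a gene without a symbol (0.939), Srpr (0.936) and Edrf1 (0.925). For Zbtb16 they were Pcgf5 (r = 0.979), Rc3h2 (0.979), Bmf (0.978), Ksr1 (0.977) and Trim47 (0.976), and none was shared by both lists. Bmf peaked in control 3, with 128 CPM, and TO 3, with 116 CPM, against 76.6 to 95.6 CPM in the other 5. These r values are the highest of many over few libraries that share a scaling, and they describe these lungs without a test.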

How the data were processed

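Whole-lung RNA from E18.5 fetuses was sequenced as paired ends. Per the labels and the study's methods, the authors aligned reads with STAR to mm10 (GRCm38) and deposited raw read counts per gene (STAR's gene counts, unstranded column used here), whose Ensembl IDs were matched to GENCODE M21 (55144 of 55385 matched). Versions are not given in the sources used here. The deposited counts were tested with edgeR 4.0.16 (R 4.3.3; TMM, quasi-likelihood, Benjamini-Hochberg over all genes tested, adjusted p of 0.1, genes with at least 5 reads in 3 libraries), with DESeq2 1.42.0 and limma 3.58.1 (voom) as alternatives, and checked on simulated data. CPM used the TMM factors of all 8 libraries. Nothing says whether the lungs of a group came from separate litters, so p-values measure the spread between these lungs.

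The 10 genes and the other lists were chosen with earlier results of these data known. From every other pathway list the 2 most abundant genes, the 2 with the largest TO difference and any called gene were named; other names were added after their values were seen. Promoter windows were RefSeq's, 250 bases before to 50 after each start (GRCm38.p6).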

Additional observations from a re-analysis of the deposited data

Results flagged for a closer look

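Of the 10 genes, 2 had a control lung far from the other 3, by the gap to the nearest lung over the whole range of the group. Klf9 reached 213 CPM in control 3, against 52.9 to 65.3 CPM in the other controls, with a gap of 0.923 of the range. Errfi1 reached 177 CPM in control 3, against 105 to 112 CPM in the other controls, with a gap of 0.904 of the range. Both gaps are above Dixon's critical value for 4 lungs. Of the 20 groups tested (10 genes in control and in TO), 2 were past it, and chance alone flags about 1 in 20.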

How the results depend on the processing

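Between TO and control, Fkbp5, Zbtb16, Errfi1 and Dusp1 stayed higher in TO under all 18 alternatives, and the other 6 genes turned direction under at least 1. Most alternatives used only the 6 libraries or a part of them. The smallest differences were 0.0057 ± 0.14 for Zbtb16 and 0.062 ± 0.16 for Errfi1 (replicate block, 8 libraries). Within sets, with TO 4 for TO in set A, Fkbp5 was lower in TO in set A (-0.09) and Zbtb16 in set C (-0.20). Errfi1 was lower in sets A (-0.09) and C (-0.04). Without TO 1 (7 libraries), log2 differences below 0 were -0.053 for Nr3c1, -0.015 for Hsd11b1 and -0.0085 for Sgk1. In all 8 libraries they were -0.032 for Nr3c1, -0.22 for Hsd11b1, -0.041 for Tsc22d3, -0.049 for Per1 and -0.043 for Klf9. The median of the 10 was then -0.0089. With the specimen set as a block in 8 libraries they were -0.040 for Nr3c1, -0.27 for Hsd11b1, -0.043 for Tsc22d3 and -0.055 for Per1. With that block in 7 libraries they were -0.082 for Nr3c1, -0.13 for Hsd11b1 and -0.019 for Tsc22d3, and in 6 libraries -0.029 for Hsd11b1.

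The replicate numbers of the labels were not shown to pair the lungs. Deviations from the group means correlated at 0.05, 0.13, 0.16 and 0.07 between lungs of numbers 1 to 4. Between lungs of unlike numbers they correlated at -0.16 to 0.10. Control 1 correlated most with TO 4 (0.10), a lung of the same set. Lungs of the same number were also of the same set, so number and set cannot be told apart in sets B and C. With the replicate number as a block, 219 genes passed in 6 libraries and 3 in 8, none of them among the 10. In the 6 libraries numbers 1 and 3 each had a single lung. That fit therefore compared TO with control only within numbers 2 and 4, with little left to estimate the spread from. The replicate block gave -0.097 for Hsd11b1 and -0.015 for Per1 in 6 libraries. In 8 it gave -0.028 for Nr3c1, -0.35 for Hsd11b1, -0.056 for Tsc22d3 and -0.083 for Per1.

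Genes passing over the whole table numbered 44 with DESeq2, 40 when every gene with a read was tested and 1 with the set as a block in 7 libraries. The count of the 10 genes with an unadjusted p under 0.05 was 0 in all 8 libraries, in 7 libraries, with the replicate block in 8 and with the set block in 6 and 7. It was 1 with the replicate block in 6 and with the set block in 8. The share of all genes was 2.35% in all 8 and 5.11% with the set block in 8, and is not given for the other fits. The median of the other response genes was 0.094 in 8 libraries, 0.12 in 7, 0.062 with the replicate block in 8, and 0.069, 0.18 and 0.089 with the set block in 8, 6 and 7.

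Leaving out each of the 6 libraries in turn gave 0 to 144 genes passing and 0 to 2 of the 10 (both without TO 4). At an unadjusted p under 0.05 there were 0 to 4 of the 10, with 4 without TO 4, where 144 genes passed over the whole table. The share of all genes at that p is not given for these fits, so the counts are not read as a result about the 10. The median of the other response genes was 0.24 to 0.51. Nr3c1 then ranged from -0.086 to 0.10 and Sgk1 from -0.10 to 0.21. Leaving out each of the 8 libraries in turn gave 0 (without control 3) to 5 genes passing the set test. The cause of these changes was not tested. With 12 to 69 read pairs per gene, TO 1 limits every value of the 8-library fits.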
